A study of Mus musculus with 24 samples.

Results

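The Lrrc8 family is the set of genes for the leucine-rich repeat proteins that build the volume-regulated anion channel. Its 5 members, Lrrc8a, Lrrc8b, Lrrc8c, Lrrc8d and Lrrc8e, were chosen by their gene symbols out of 32288 genes in the annotation, with earlier results of these data, the differences between genotypes in the deep brain by cell class, already known. The deep brain genotype differences are therefore given as a description without p-values. Where a count of members past the threshold is printed for them, it stands beside the share over all genes, and nothing is read from it. Tests are kept for the cortex, for the regions and for the interaction of region and genotype. The interaction contains the deep brain genotype difference, and the region comparison uses the control deep brain libraries. Neither is therefore independent of the results known at the choice. The data were single-nucleus RNA-sequencing libraries of the B6.Pdgfbtm3Cbet strain, a model of primary familial brain calcification in which the ret allele removes the retention motif of the growth factor PDGF-B. Brains of 6 mutant mice (Pdgfb ret/ret, all female) and 6 control mice (Pdgfb ret/wt, 5 female and 1 male) were divided into deep brain, the region prone to vessel calcification (pallidum, thalamus and hypothalamus, midbrain and pons), and cortex (cerebral cortex with hippocampus), which gave 24 libraries. All mice, controls included, carried the ret allele at least once in the germline, so no wild-type animal entered a comparison. In both genotypes mice 1 to 3 were aged 5 months and 0 to 18 days and mice 4 to 6 were aged 4 months and 7 to 24 days, and the male was control mouse 6.

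The volume-regulated anion channel opens when a cell swells, lets chloride and small organic osmolytes such as taurine and glutamate leave, and so lets the cell shrink back. LRRC8A is the subunit that every functional channel needs and that carries its partners to the plasma membrane. LRRC8B, LRRC8C, LRRC8D and LRRC8E join it in mixed assemblies, and the partner sets which solutes pass. LRRC8D is known for the passage of larger organic osmolytes and some drugs. In the brain the channel is best known in astrocytes, the glia that take up potassium and water around synapses and vessels, where it is a route of glutamate release during swelling.

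A total of 204925 nuclei passed the filters, 124958 from the deep brain and 79967 from the cortex, and 117067 and 36822 of them were placed in a named cell class. Libraries held between 23625232 and 96459036 unique molecular identifiers (UMIs, each 1 captured RNA molecule). The cortical libraries fell into a shallow set of 7 with medians of 804 to 1160.5 UMIs per nucleus (mutants 1 to 4 and controls 1, 3 and 4) and a deep set of 5 with medians of 4597 to 8054, and most nuclei of the shallow set stayed unnamed. No pair of libraries shared more than 1.985% of the barcodes of the smaller one. Levels are given as CPM, the UMIs of a gene per 1000000 UMIs of the nuclei of that class in that library, and the library (1 region of 1 mouse) was the unit of replication. Summed over their own marker lists, the deep brain classes stood at 13311 to 16912 CPM in astrocytes, 14726 to 16929 CPM in neurons, 16355 to 21283 CPM in oligodendrocytes, 8689 to 10427 CPM in oligodendrocyte precursor cells, 11507 to 16944 CPM in microglia and 11027 to 15789 CPM in endothelial cells, over both genotypes. A gene was called where edgeR's quasi-likelihood test gave an adjusted p under 0.05.

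The 5 genes lie at 3 loci of the GRCm38 genome. Lrrc8a (ENSMUSG00000007476) lies at chr2:30237715-30263790 on the plus strand. Lrrc8b (ENSMUSG00000070639, chr5:105415775-105490074), Lrrc8c (ENSMUSG00000054720, chr5:105519388-105613018) and Lrrc8d (ENSMUSG00000046079, chr5:105699969-105832436) follow each other on the plus strand of chromosome 5, with 29.31 kb between Lrrc8b and Lrrc8c and 86.95 kb between Lrrc8c and Lrrc8d. Lrrc8e (ENSMUSG00000046589) lies alone at chr8:4226827-4237470 on the plus strand. Lrrc8a overlaps an antisense gene over 509 bases and Lrrc8d overlaps the antisense gene Lrrc8dos over 4216 bases. Lrrc8a also shares 23224 bases of the same strand with the gene model Gm28035, which the count matrices do not list. Lrrc8c holds a short sense-intronic gene, C230066G23Rik, over 1333 bases of the same strand, and how reads in that stretch were assigned was not checked.

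The promoter windows of 3 members (RefSeq, GRCm38.p6, 250 bases before to 50 bases after the annotated start) are shown as examples that differ in role and level. Lrrc8a is the obligatory subunit, Lrrc8c carried the genotype difference in astrocytes, and Lrrc8e was nearly undetected. Capitals mark GC boxes (GGGCGG on either strand) and, in Lrrc8a, an E-box (CACGTG) and a cAMP response element (TGACGTCA).
Lrrc8a, chr2:30237519-30237818, plus strand: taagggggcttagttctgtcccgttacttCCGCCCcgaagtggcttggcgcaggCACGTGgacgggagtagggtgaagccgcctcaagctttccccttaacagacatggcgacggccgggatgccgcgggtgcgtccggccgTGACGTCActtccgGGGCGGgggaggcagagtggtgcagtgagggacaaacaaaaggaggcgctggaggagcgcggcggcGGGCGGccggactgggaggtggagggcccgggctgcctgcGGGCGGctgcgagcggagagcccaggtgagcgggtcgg
Lrrc8c, chr5:105519221-105519520, plus strand: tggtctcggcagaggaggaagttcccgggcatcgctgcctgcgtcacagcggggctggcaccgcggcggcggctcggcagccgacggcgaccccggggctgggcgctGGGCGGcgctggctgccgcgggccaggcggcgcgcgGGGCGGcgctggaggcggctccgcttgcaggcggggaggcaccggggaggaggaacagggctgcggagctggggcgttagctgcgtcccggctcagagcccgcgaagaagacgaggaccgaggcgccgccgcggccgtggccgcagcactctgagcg
Lrrc8e, chr8:4226577-4226876, plus strand: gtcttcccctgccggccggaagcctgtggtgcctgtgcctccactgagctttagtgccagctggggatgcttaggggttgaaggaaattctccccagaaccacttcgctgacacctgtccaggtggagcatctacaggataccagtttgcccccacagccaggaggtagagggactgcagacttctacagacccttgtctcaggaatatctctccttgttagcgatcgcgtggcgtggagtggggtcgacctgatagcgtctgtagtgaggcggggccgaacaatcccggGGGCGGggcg
The windows of Lrrc8a and Lrrc8c had a GC content of 70% and 78% and held 32 and 44 CpG dinucleotides, against a median of 7 CpG over 32851 promoter windows of 27025 genes. Lrrc8e had 60% GC and 14 CpG, and 63.71% of promoter windows had fewer, against 97.75% for Lrrc8c. The windows held 4 GC boxes in Lrrc8a, 2 in Lrrc8c and 1 in Lrrc8e, and a GC box occurred in 35.66% of all promoter windows. The E-box and the cAMP response element occurred in 7.15% and 1.79% of windows. Lrrc8b had 78% GC and 51 CpG with 2 GC boxes and 1 CCAAT box (37.41% of windows), and the windows at both starts of Lrrc8d had 71.33% and 70.33% GC. None of the windows of the 5 genes held the TATA box letters TATAAA, which 13.62% of windows held.

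In control mice the members differed in the classes where they were highest. Among the 6 classes plotted, Lrrc8a was highest in astrocytes and endothelial cells, Lrrc8b in oligodendrocytes, Lrrc8c in endothelial cells and Lrrc8d in oligodendrocytes and microglia (plot of levels by class). These orders are descriptions with no test, because the classes were made from the same nuclei and the family was chosen with earlier results of these data known.

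**Figure D1:**
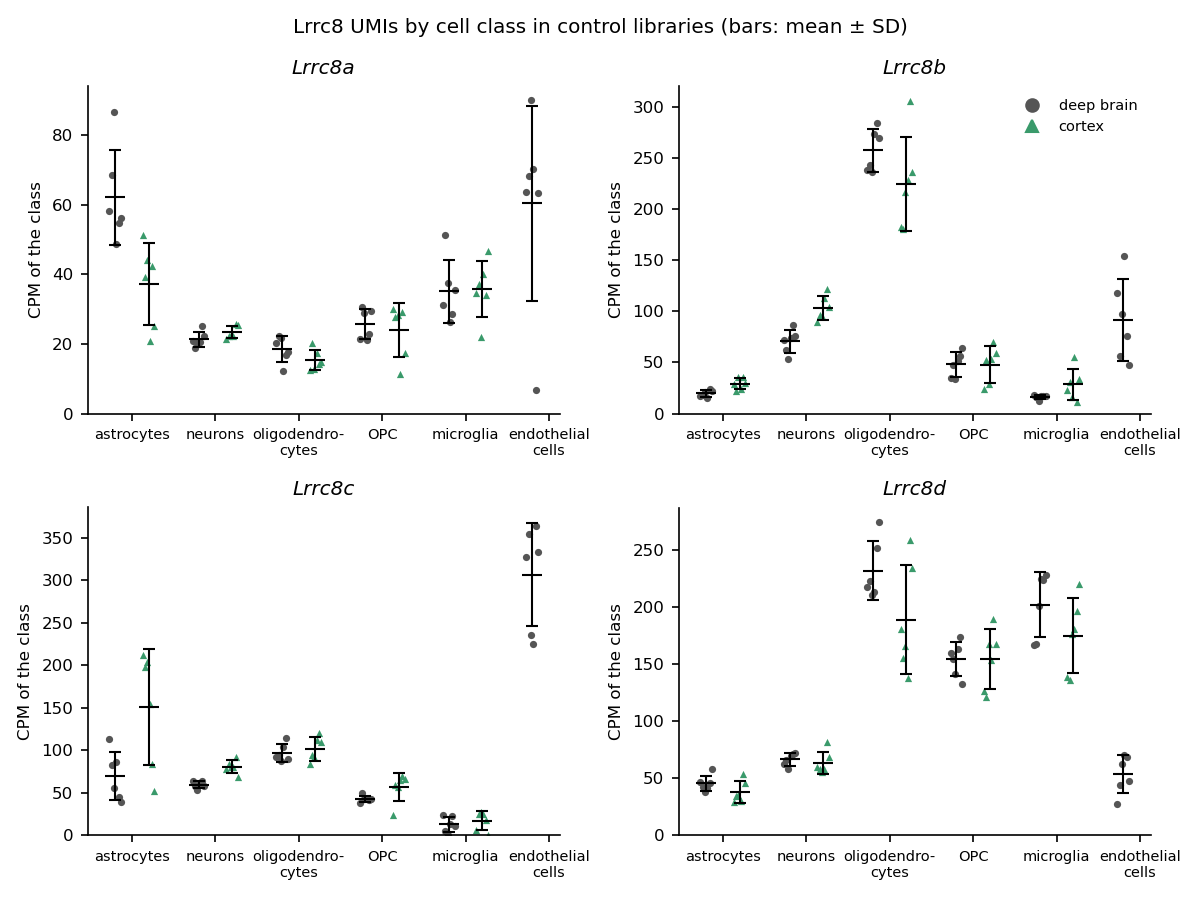
CPM of Lrrc8a, Lrrc8b, Lrrc8c and Lrrc8d in 6 cell classes of control libraries, 1 panel per gene, 1 point per library (circles deep brain, triangles cortex), with bars for mean ± SD. OPC are oligodendrocyte precursor cells; cortical endothelial cells are not plotted because a single control library held 20 of them. Lrrc8b and Lrrc8d stand highest in oligodendrocytes, and Lrrc8c stands highest in endothelial cells of the deep brain.

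Lrrc8a, the obligatory subunit, stood at 62.2 ± 13.7 CPM (SD, n = 6) in deep brain astrocytes of controls and 60.4 ± 28.0 CPM in endothelial cells. It reached 35.1 ± 9.0 CPM in microglia, 25.7 ± 4.4 CPM in oligodendrocyte precursor cells, 21.4 ± 2.1 CPM in neurons and 18.5 ± 3.8 CPM in oligodendrocytes. Each class overlapped the next one down in that order, so no neighbours were separated beyond the spread of libraries. In the cortex Lrrc8a was again first in astrocytes, at 37.2 ± 11.9 CPM, overlapping microglia at 35.8 ± 8.2 CPM, and lowest in oligodendrocytes, at 15.4 ± 3.0 CPM, where the range did not overlap that of neurons (23.4 ± 1.8 CPM).

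Lrrc8b was highest in oligodendrocytes, the myelin-forming glia, in both regions. It stood at 257 ± 20.9 CPM in deep brain oligodendrocytes, above every library of the next class, endothelial cells (91.5 ± 40.4 CPM). Neurons followed at 70.7 ± 11.3 CPM and oligodendrocyte precursor cells at 48.0 ± 12.1 CPM. Astrocytes (19.7 ± 3.1 CPM) and microglia (16.4 ± 1.9 CPM) were lowest and overlapped each other. In the cortex oligodendrocytes stood at 225 ± 45.9 CPM and neurons at 103 ± 12.1 CPM, and neither range overlapped that of the class below it. Committed oligodendrocyte precursor cells, the stage between precursors and myelinating cells, held 148 ± 32.7 CPM in 6 deep brain control libraries, a level between those of the precursors and the mature cells.

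Lrrc8c stood at 306 ± 60.7 CPM in deep brain endothelial cells of controls, and all 6 libraries lay above all libraries of the next class. Oligodendrocytes (96.8 ± 10.2 CPM), astrocytes (70.0 ± 28.3 CPM) and neurons (59.4 ± 4.1 CPM) formed a middle range in which each overlapped its neighbour. Oligodendrocyte precursor cells held 42.4 ± 3.9 CPM and microglia 12.4 ± 9.4 CPM, with 1 of 6 microglial libraries at 0. Mural cells, which wrap the endothelium, held 155 ± 79.4 CPM in 5 control libraries, but mutant deep brain libraries held only 1 to 9 mural nuclei against 15 to 25 in controls and gave no level. In the cortex, among classes with a level in all 6 controls, astrocytes took the first place for Lrrc8c at 151 ± 68.0 CPM, overlapping oligodendrocytes at 102 ± 14.1 CPM. Endothelial and mural cells had 1 cortical control library with 20 or more nuclei each, at 235 and 192 CPM.

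Lrrc8d, the partner linked to larger osmolytes, stood at 232 ± 25.9 CPM in deep brain oligodendrocytes and 202 ± 28.5 CPM in microglia, which overlapped. Committed oligodendrocyte precursor cells stood between them at 225 ± 23.1 CPM in 6 control libraries. Oligodendrocyte precursor cells held 154 ± 15.1 CPM, and neurons, endothelial cells and astrocytes lay below them at 66.3 ± 5.6, 53.3 ± 16.8 and 45.2 ± 6.9 CPM. Fibroblasts held 116 ± 38.6 CPM in 6 control libraries. The same order held in the cortex among the 5 classes measured there, from oligodendrocytes (189 ± 47.6 CPM) to astrocytes (38.0 ± 9.8 CPM).

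Lrrc8e was close to absent from these nuclei. It had 47 UMIs in all kept nuclei, against 33289 for Lrrc8a, 127617 for Lrrc8b, 94545 for Lrrc8c and 123457 for Lrrc8d. In control astrocytes it had 0 UMIs, which allows a level of up to 0.169 CPM in the deep brain and 0.880 CPM in the cortex (3 counts over the group, counting error only), and in mutant astrocytes of the deep brain it had 3 UMIs in 6083 nuclei. Of the 41 UMIs in named nuclei, deep brain neurons held 10 in controls and 6 in mutants, and the level in controls was 0.0267 ± 0.0235 CPM. Cholinergic neurons of the deep brain, a part of those neurons, held 1.44 ± 1.25 CPM (0 to 2.98) in 322 control nuclei. In 348 mutant nuclei they held 0.216 ± 0.529 CPM (0 to 1.30, median 0). These values rested on at most 10 UMIs in controls and 6 in mutants. The other neuron types of deep brain controls with a level held 0.036 CPM or less. Lrrc8e passed the filter on low counts in none of the 24 comparisons and is left out of the tests below.

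Per kilobase of gene span, the scale on which genes were set against each other, the family composition differed by class. The spans are 26.08 kb for Lrrc8a, 74.3 kb for Lrrc8b, 93.63 kb for Lrrc8c, 132.5 kb for Lrrc8d and 10.64 kb for Lrrc8e, and counts at the 5′ end of RNAs need not grow with span. In deep brain astrocytes of controls Lrrc8a stood at 2.39 ± 0.53 CPM per kb, with Lrrc8c at 0.748 ± 0.302, Lrrc8d at 0.342 ± 0.052 and Lrrc8b at 0.265 ± 0.042 CPM per kb. The order of Lrrc8a and Lrrc8c rested on the division by span, since their CPM were 62.2 ± 13.7 and 70.0 ± 28.3. In cortical astrocytes Lrrc8c stood at 1.61 ± 0.73 CPM per kb beside Lrrc8a at 1.43 ± 0.45, a difference within their spread. That closeness rested on the division by span too, since in CPM Lrrc8c ran from 52.4 to 212 and Lrrc8a from 20.8 to 51.5. Oligodendrocytes of the deep brain held Lrrc8b at 3.47 ± 0.28 and Lrrc8d at 1.75 ± 0.20 CPM per kb against 0.709 ± 0.145 for Lrrc8a. Endothelial cells held Lrrc8c at 3.27 ± 0.65 and Lrrc8a at 2.32 ± 1.07 CPM per kb, and microglia held Lrrc8d at 1.52 ± 0.22 and Lrrc8a at 1.35 ± 0.35 CPM per kb. In CPM these pairs lay further apart, at 306 ± 60.7 and 60.4 ± 28.0 in endothelial cells and 202 ± 28.5 and 35.1 ± 9.0 in microglia.

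The first question is whether members differed between mutant and control astrocytes of the deep brain. Lrrc8c was 3.11-fold lower in mutants. In control mice 1 to 6 Lrrc8c stood at 113, 81.8, 55.7, 85.9, 44.9 and 39.1 CPM in deep brain astrocytes. In mutant mice 1 to 6 it stood at 20.7, 28.4, 19.6, 31.8, 22.4 and 11.4 CPM. All mutants lay below all controls, and the controls were the more scattered group (70.0 ± 28.3 against 22.4 ± 7.2 CPM, SD, n = 6 each). The log2 fold change of Lrrc8c was -1.64 ± 0.25 (SE), and 1 of the 5 members was called, as were 4.76% of 12999 genes tested in deep brain astrocytes. Of the 5 members, 4 passed the filter on low counts in this comparison.

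The other members did not follow Lrrc8c in deep brain astrocytes. Lrrc8a ran from 48.6 to 86.8 CPM in controls and from 50.1 to 102 CPM in mutants, with a log2 fold change of 0.27 ± 0.16. Lrrc8b ran from 15.6 to 23.8 CPM in controls and from 16.9 to 27.5 CPM in mutants, with a log2 fold change of 0.16 ± 0.13. Lrrc8d stood at 46.4, 41.8, 38.0, 41.5, 45.9 and 57.8 CPM in controls 1 to 6 and at 58.9, 66.5, 62.5, 46.7, 73.4 and 49.6 CPM in mutants 1 to 6. Its groups overlapped, and its log2 fold change was 0.39 ± 0.12.

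**Figure D2:**
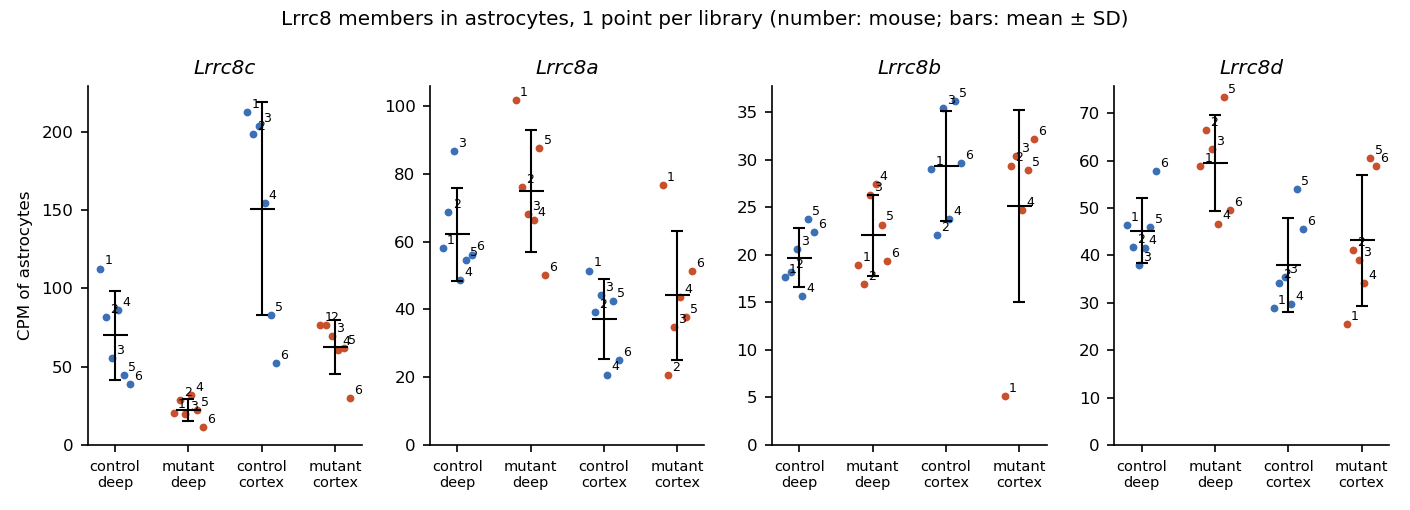
CPM of Lrrc8a, Lrrc8b, Lrrc8c and Lrrc8d in astrocytes, 1 panel per gene, 1 point per library for controls and mutants in deep brain and cortex, numbered by mouse, with bars for mean ± SD. The 6 deep brain mutants lie below the 6 deep brain controls for Lrrc8c, and the groups overlap for the other 3 genes.

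Depth and purity of the astrocyte nuclei were measured beside this difference. Deep brain astrocytes had medians of 2913 to 4347 UMIs per nucleus in control libraries and 2755.5 to 3645 in mutant libraries, and 615 to 1016 and 685 to 1246 nuclei. The summed level of the 6 endothelial markers in astrocytes was 4.61 to 16.5 CPM in controls and 8.11 to 15.8 CPM in mutants, with no marker at 0 over the pooled nuclei, and the ranges overlapped. The 6 oligodendrocyte markers summed to 791 to 1224 CPM and 777 to 1128 CPM, and the 6 neuronal markers to 507 to 828 CPM and 598 to 936 CPM. The summed level of the 5 markers of oligodendrocyte precursor cells was higher in mutant astrocytes (268 to 435 CPM against 166 to 303 CPM), and that of the 6 fibroblast markers was lower (50.6 to 69.8 CPM against 72.7 to 108 CPM). Most of the latter difference came from Ranbp3l, at 55.5 CPM in pooled control and 24.5 CPM in pooled mutant nuclei, and Col1a1 was lower too, at 18.4 and 11.3 CPM, while Dcn stood at 3.27 and 4.26 CPM and Col1a2 at 16.1 and 18.4 CPM. Lum and Slc6a13 lay under 1 CPM in both. Among the mural markers Pdgfrb stood at 102 CPM in pooled control and 69.7 CPM in pooled mutant nuclei. Notch3 stood at 53.3 and 48.0 CPM, Vtn at 4.34 and 4.16 CPM and Rgs5 at 1.92 and 0.588 CPM. Under 1 CPM in both, Kcnj8 and Abcc9 were lower and Myh11 and Acta2 higher in mutants. The part of the precursor, fibroblast and mural lists in the Lrrc8c difference was not tested. Without nuclei in which markers of another class held as many UMIs as those of astrocytes, the log2 fold change of Lrrc8c was -1.70 ± 0.25.

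Counted by nucleus, 17.6 ± 6.3% of control and 6.25 ± 1.56% of mutant astrocyte nuclei of the deep brain held an Lrrc8c UMI (SD over 6 libraries each). With each nucleus thinned to 1000 UMIs, which left out 52 control and 87 mutant nuclei, the shares were 5.6 ± 1.8% and 1.94 ± 0.59%. In microglia, the class with the lowest Lrrc8c level, the thinned shares were 1.36 ± 1.23% in controls and 1.48 ± 0.62% in mutants, and the shares before thinning were 2.49 ± 2.01% and 2.95 ± 1.22% at median depths of 2379 and 2190 UMIs. The thinned share of mutant astrocytes lay within 1 SD of the microglial share, and that of control astrocytes lay above it.

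Astrocytes of the deep brain are not uniform, and the level of Lrrc8c followed the cluster. The 4 largest of 12 astrocyte clusters held 9965 nuclei (91.41%). The cluster with telencephalic markers (Mfge8, Gldc and the glutamate transporters Slc1a2 and Slc1a3 among its leading genes) held 157 ± 65.4 CPM of Lrrc8c in controls and 44.1 ± 13.7 CPM in mutants, with ranges of 72.2 to 238 and 21.5 to 60.2 CPM. The cluster led by Agt and Itih3 held 29.4 ± 8.2 and 15.2 ± 5.2 CPM. The cluster led by Slc7a10 and Aldh1a1 held 41.4 ± 10.6 and 8.95 ± 5.64 CPM, and that led by Etnppl held 38.6 ± 27.4 and 11.2 ± 2.5 CPM. Mutant means lay below control means in each of these 4 clusters. Of the smaller clusters 3 had 1 control library each with 20 or more nuclei. In that led by Myoc and Gfap Lrrc8c stood at 34.9 CPM on 4 UMIs in that library and 0 to 15.6 CPM on 0 to 2 UMIs in 4 mutant libraries. The cluster led by Col23a1 went the other way, at 0 CPM in its control library. Its 4 mutant libraries stood at 24.9 to 60.3 CPM on 2 to 6 UMIs. The small cluster led by Aldh1a1 went that way too, at 13.5 CPM on 2 UMIs in 1 control library. In 1 mutant library it stood at 78.2 CPM on 11 UMIs. The clusters were made from the same nuclei, so these values are descriptions.

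**Figure D3:**
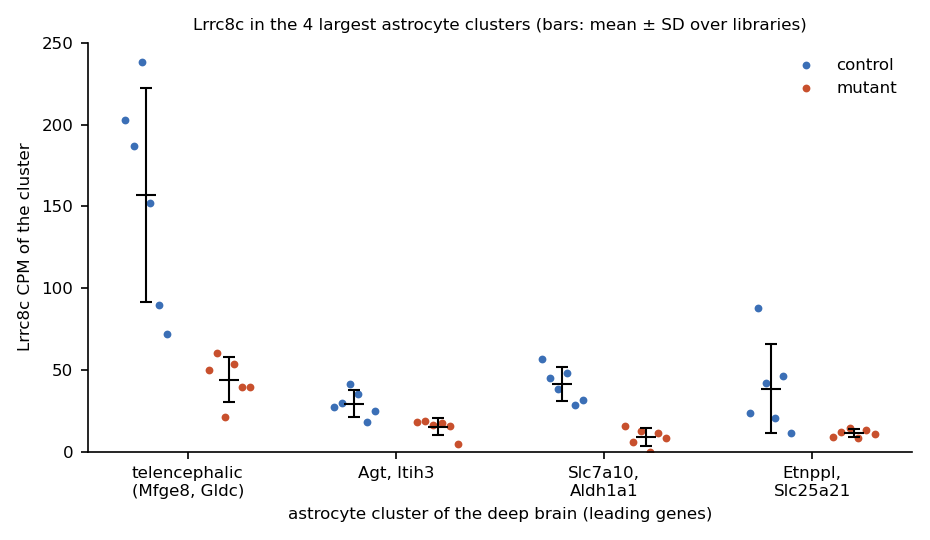
CPM of Lrrc8c in the 4 largest astrocyte clusters of the deep brain, 1 point per library (blue control, red mutant), with bars for mean ± SD over 6 libraries. Control libraries of the telencephalic cluster stand between 72.2 and 238 CPM, above its mutant libraries at 21.5 to 60.2 CPM.

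The make-up of the astrocytes differed between genotypes as well. The telencephalic cluster was 8.06% to 42.5% of deep brain astrocytes in control libraries and 10.6% to 24.9% in mutant libraries, with medians of 25.2% and 15.8%. The Etnppl cluster was 2.26% to 9.76% in controls and 4.96% to 41.3% in mutants. Within the telencephalic cluster alone the log2 fold change of Lrrc8c between genotypes was -1.77 ± 0.25, as large as over all astrocytes. Between the age sets the log2 fold change was -1.89 ± 0.24 in mice 1 to 3 and -1.35 ± 0.35 in mice 4 to 6. Without control 6, the male, it was -1.76 ± 0.23.

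The cortical libraries carried the test of the genotype. They came from the same 12 mice as the deep brain libraries, so this test is not independent of the results known at the choice. Lrrc8c fell 2.49-fold in cortical astrocytes of mutants. In control mice 1 to 6 it stood at 212, 198, 204, 155, 83.1 and 52.4 CPM in cortical astrocytes, and in mutant mice 1 to 6 at 76.6, 76.4, 69.4, 60.9, 61.9 and 30.1 CPM. Controls 1 to 5 lay above all mutants, and control 6, the male, lay below 5 of the 6 mutants. The log2 fold change was -1.31 ± 0.30 (SE; 151 ± 68.0 CPM in controls, 62.5 ± 17.3 CPM in mutants, SD, n = 6 each), with an adjusted p = 0.0195 in edgeR's quasi-likelihood test. It was 1 of the 5 members called, beside 1.97% of 6919 genes tested in cortical astrocytes.

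The value was also computed within the shallow and within the deep cortical libraries, which differ in their mice too. Shallow and deep refer to the median over all kept nuclei of a library, not to its astrocytes. Astrocyte nuclei had medians of 3088.5 to 6674 UMIs in control and 3413 to 8717 UMIs in mutant cortical libraries. The astrocytes of the shallow libraries were thus not shallow, and the split was not one by astrocyte depth. The shallow libraries alone gave a log2 fold change of Lrrc8c of -1.46 ± 0.21 (edgeR adjusted p = 6.3e-04), and the deep libraries alone gave -1.20 ± 0.40 (adjusted p = 0.380). Leaving out control 1 gave -1.18 (adjusted p = 0.0543) and leaving out control 2 gave -1.20 (adjusted p = 0.0628), so the call rested on each of these libraries. Leaving out control 6, the male, gave -1.49 (adjusted p = 0.0036). Cortical astrocyte nuclei were few, between 46 and 478 per control library and 29 and 404 per mutant library. The 6 endothelial markers summed to 2.95 to 8.25 CPM in control and 0 to 11.7 CPM in mutant cortical astrocytes, with none at 0 over the pooled nuclei of either genotype. The summed level of the markers of oligodendrocyte precursor cells was 103 to 148 CPM in control and 118 to 305 CPM in mutant cortical astrocytes, with medians of 111 and 209 CPM, and that of the fibroblast markers was 112 to 203 and 30.4 to 139 CPM, with medians of 143 and 88.5 CPM. Mural markers summed to 109 to 259.7 and 79.3 to 205 CPM, with medians of 186 and 109.6 CPM. Most of the mural sum was Pdgfrb, at 169 CPM in pooled control and 120 CPM in pooled mutant nuclei. Notch3 stood at 22.3 and 23.6 CPM and Vtn at 3.52 and 0.908 CPM. The remaining mural markers lay at 1.17 CPM or less, with Kcnj8 and Abcc9 at 0 in mutants. The part of these 3 lists in the cortical difference of Lrrc8c was not tested.

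The 2 largest cortical astrocyte clusters both had a lower mean of Lrrc8c in mutants. The cluster led by Slc1a3 and Aqp4 held 124 ± 53.3 CPM in 5 control libraries and 54.4 ± 25.7 CPM in 5 mutant libraries. The groups overlapped, with control 6 at 63.6 CPM and mutant 2 at 83.8 CPM. The cluster led by Slco1c1 and Gpc5 held 160 ± 109 CPM in 4 control libraries (mice 2, 4, 5 and 6) and 55.7 ± 13.9 CPM in 2 mutant libraries (mice 5 and 6). Control 6, at 52.3 CPM, lay between the mutants at 45.9 and 65.5 CPM, and controls 2 and 4 stood highest, at 303 and 182 CPM. Both small clusters with a level in 1 library of each genotype went the other way. The cluster led by Gm29260, with Mki67 among its leading genes, held 42.8 CPM in the control and 90.1 CPM in the mutant library, and the cluster led by Agt and Itih3 held 9.24 and 20.9 CPM, on 1 and 2 UMIs. In nuclei thinned to 1000 UMIs, 12.2 ± 7.8% of control and 5.42 ± 2.73% of mutant cortical astrocytes held an Lrrc8c UMI (45.6 ± 19.6% and 26.1 ± 10.0% before thinning), against 2.43 ± 2.43% and 2.24 ± 1.78% of cortical microglia.

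No other member passed the test in cortical astrocytes. Lrrc8a had a log2 fold change of 0.25 ± 0.25 (edgeR adjusted p = 0.798), Lrrc8b of -0.21 ± 0.26 (adjusted p = 0.856) and Lrrc8d of 0.20 ± 0.22 (adjusted p = 0.828). The groups overlapped for all 3 of them. The size of the Lrrc8c difference was not shown to differ between the regions: the interaction of region and genotype was -0.33 ± 0.42 on the log2 scale (adjusted p = 1.00). With the mouse as a block the interaction of Lrrc8c was -0.39 ± 0.21 (edgeR adjusted p = 0.813). The interaction was called for 0 of the 5 members by edgeR and by DESeq2, with 0 members at an unadjusted p under 0.05, and for 0.00799% of 12516 genes.

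The regions themselves differed in control astrocytes, and this comparison asks where the members stand without the mutation. Lrrc8c fell 2.05-fold in the deep brain against the cortex, with a log2 fold change of -1.04 ± 0.28 (edgeR adjusted p = 0.0140). With the mouse as a block, which pairs the regions, it was -1.09 ± 0.13 (edgeR adjusted p = 3.4e-07). In each of the 6 control mice the deep brain value of Lrrc8c was the lower one. Lrrc8b fell as well, by 0.66 ± 0.21 on the log2 scale (adjusted p = 0.0376). Its adjusted p was 0.0534 with the mouse as a block and 0.0855 without the filter on low counts. Lrrc8a rose in the deep brain by 0.68 ± 0.22 (adjusted p = 0.0472), and Lrrc8d did not pass the test at 0.10 ± 0.19 (adjusted p = 0.847). Of the 5 members 3 were called, beside 9.46% of 12516 genes. In control astrocytes the summed markers of oligodendrocyte precursor cells were higher, and those of fibroblasts lower, in the deep brain than in the cortex. The part of these lists in the region differences was not tested.

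The region differences of Lrrc8c and Lrrc8a changed with the astrocytes compared. With the telencephalic cluster standing for the deep brain, the log2 fold change of Lrrc8c between regions was 0.09 ± 0.27 (edgeR adjusted p = 0.989) and that of Lrrc8a was -0.04 ± 0.23 (adjusted p = 1.00). Lrrc8b kept its direction there at -0.94 ± 0.26, with an adjusted p of 0.0796. With the deep cortical libraries only, Lrrc8c stood at -0.58 ± 0.37 (adjusted p = 0.440), and without control 2 or control 3 its adjusted p was 0.0653 and 0.0951. The call of Lrrc8b was lost when any 1 control was left out (log2 fold change from -0.58 to -0.70, adjusted p from 0.0593 to 0.201), and that of Lrrc8a when control 2, 3, 4, 5 or 6 or mutant 3 or 4 was left out (log2 fold change from 0.61 to 0.82, adjusted p from 0.0524 to 0.127).

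In neurons, where 39.6% of 20376 genes were called between regions of controls, 3 of the 5 members were called. Lrrc8b stood at 72.4, 62.6, 53.8, 73.5, 86.7 and 75.5 CPM in deep brain neurons of controls 1 to 6 and at 89.9, 96.1, 95.9, 113, 122 and 104 CPM in their cortical neurons. The 2 regions did not overlap, and Lrrc8b fell by 0.67 ± 0.10 on the log2 scale in the deep brain (edgeR adjusted p = 1.03e-05). Lrrc8c stood at 52.7 to 63.2 CPM in the deep brain and 67.9 to 91.4 CPM in the cortex, again without overlap, and fell by 0.56 ± 0.09 (adjusted p = 3.29e-05). Lrrc8a fell by 0.26 ± 0.10 (adjusted p = 0.0334). That call was lost when control 1, 2, 3, 5 or 6 was left out (adjusted p from 0.0516 to 0.0916) and without the filter on low counts (adjusted p = 0.0706). Lrrc8d stood at -0.07 ± 0.10 (adjusted p = 0.6249).

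Neuron types differed in Lrrc8b and Lrrc8c. In deep brain controls Lrrc8c stood at 92.0 ± 5.3 CPM in Slc17a7 forebrain glutamatergic neurons, 85.5 ± 14.3 CPM in striatal projection neurons, 47.2 ± 1.8 CPM in GABAergic neurons and 19.5 ± 3.5 CPM in Slc17a6 glutamatergic neurons. Lrrc8b stood at 129 ± 17.3 CPM in the Slc17a7 neurons, 71.3 ± 9.6 CPM in striatal neurons, 64.8 ± 10.4 CPM in GABAergic neurons and 46.4 ± 9.0 CPM in Slc17a6 neurons. In cortical controls striatal neurons held Lrrc8b at 72.7 ± 6.7 CPM and Lrrc8c at 79.7 ± 11.7 CPM, and the regions overlapped for both genes. Cortical GABAergic neurons held 112 ± 21.5 and 60.2 ± 6.9 CPM, above the deep brain libraries without overlap. The part of neuron make-up in the region differences was not tested.

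Between genotypes, Lrrc8b stood at 53.8 to 86.7 CPM in deep brain neurons of controls and 49.7 to 63.4 CPM in mutants, with a log2 fold change of -0.32 ± 0.11. The share of Slc17a7 forebrain neurons among deep brain neurons moved with it, from 7.61% to 24.2% in controls to 0.418% to 7.92% in mutants. Within that type Lrrc8b stood at 129 ± 17.3 and 90.4 ± 18.3 CPM, within GABAergic neurons at 64.8 ± 10.4 and 53.5 ± 6.9 CPM, and within striatal neurons at 71.3 ± 9.6 and 69.8 ± 7.2 CPM. Cerebellar granule neurons differed in number too, at 628 nuclei in 2 control libraries and 4179 nuclei in 4 mutant libraries of the deep brain. They held 75.5 ± 25.2 and 53.7 ± 12.8 CPM of Lrrc8b. The part of these differences in make-up was not tested further. Members called numbered 0 of 5 in deep brain neurons (0.348% of genes called), 0 in cortical neurons (0.00605%) and 0 for the interaction (0.231%), by edgeR and by DESeq2, with 0 and 1 members at an unadjusted p under 0.05 in the last 2. In cortical neurons the log2 fold changes ran from -0.07 ± 0.10 for Lrrc8a to 0.14 ± 0.11 for Lrrc8d.

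In oligodendrocytes Lrrc8b stood at 257 ± 20.9 CPM in control and 247 ± 19.1 CPM in mutant libraries of the deep brain (log2 fold change -0.03 ± 0.07), and Lrrc8d at 232 ± 25.9 and 250 ± 23.5 CPM (0.14 ± 0.08). Lrrc8c stood at 96.8 ± 10.2 and 105 ± 7.7 CPM, with a log2 fold change of 0.15 ± 0.08 whose sign was opposite to that in astrocytes of the same libraries. In cortical oligodendrocytes the log2 fold changes were 0.34 ± 0.27 for Lrrc8a, 0.03 ± 0.13 for Lrrc8b, 0.17 ± 0.11 for Lrrc8c and 0.21 ± 0.17 for Lrrc8d, with edgeR adjusted p from 0.596 to 0.949. Between regions Lrrc8d was 0.28 ± 0.14 higher in the deep brain (edgeR adjusted p = 0.299), and with the mouse as a block 0.31 ± 0.09 (adjusted p = 0.0207). Members called numbered 0 of 5 in the deep brain (1.65% of genes called), the cortex (0.910%), between regions (6.39%) and for the interaction (0.00%), by edgeR and by DESeq2, with 0 members at an unadjusted p under 0.05 in the last 3.

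In oligodendrocyte precursor cells Lrrc8d stood at 154 ± 15.1 CPM in control and 166 ± 19.3 CPM in mutant libraries of the deep brain (log2 fold change 0.12 ± 0.09), and Lrrc8c at 42.4 ± 3.9 and 42.7 ± 9.3 CPM (0.03 ± 0.13). In the cortex, with 6 control and 5 mutant libraries, Lrrc8c had a log2 fold change of -0.32 ± 0.23 (edgeR adjusted p = 0.884). Lrrc8a did not pass the filter on low counts in that comparison. Between regions of controls Lrrc8c stood at -0.54 ± 0.17 (adjusted p = 0.0821, and 0.0409 without mixed-marker nuclei). Members called numbered 0 of 5 in the deep brain (0.0445% of genes called), the cortex (0.00%), between regions (3.50%) and for the interaction (0.00%), by edgeR and by DESeq2, with 0, 1 and 0 members at an unadjusted p under 0.05 in the last 3.

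In microglia Lrrc8d stood at 202 ± 28.5 CPM in control and 189 ± 22.5 CPM in mutant libraries of the deep brain, and at 175 ± 32.9 and 165 ± 48.2 CPM in the cortex. Lrrc8b stood at 12.5 to 17.9 CPM in control and 15.8 to 32.2 CPM in mutant microglia of the deep brain, with a log2 fold change of 0.53 ± 0.23, on 58 and 103 UMIs. Of the 5 members 3 passed the filter in the deep brain and 1 in the cortex. Members called numbered 0 of 5 in the deep brain (0.180% of genes called), the cortex (0.308%), between regions (1.76%) and for the interaction (0.00%), by edgeR and by DESeq2, with 0 members at an unadjusted p under 0.05 in the last 3.

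In endothelial cells, the class with the most Lrrc8c, its mean was higher in mutants and the groups overlapped. In the deep brain Lrrc8c stood at 327, 354, 236, 225, 364 and 333 CPM in controls 1 to 6. In the 5 mutant libraries with 20 or more endothelial nuclei it stood at 293 to 459 CPM, with a mean of 387 ± 59.4 CPM. The log2 fold change was 0.30 ± 0.19, on 238 and 308 UMIs. The mural markers summed to 1180 to 3922 CPM in control and 82.5 to 1632 CPM in mutant endothelial cells of the deep brain, and their part was not tested. Lrrc8a, at 49.6 ± 22.8 CPM in mutants, and Lrrc8d, at 61.5 ± 12.2 CPM, did not pass the filter there, which left 2 of 5 members tested. The cortex had 1 control and 2 mutant libraries, with Lrrc8c at 235 CPM and at 299 and 311 CPM, and its genotype fit took the spread of the mutant pair for the lone control. Members called numbered 0 of 5 in the deep brain (1.85% of genes called), the cortex (2.81%), between regions (0.431%) and for the interaction (0.00%), by edgeR and by DESeq2, with 0 members at an unadjusted p under 0.05 in the last 3. The regional fit rested on the same single cortical control library.

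**Figure D4:**
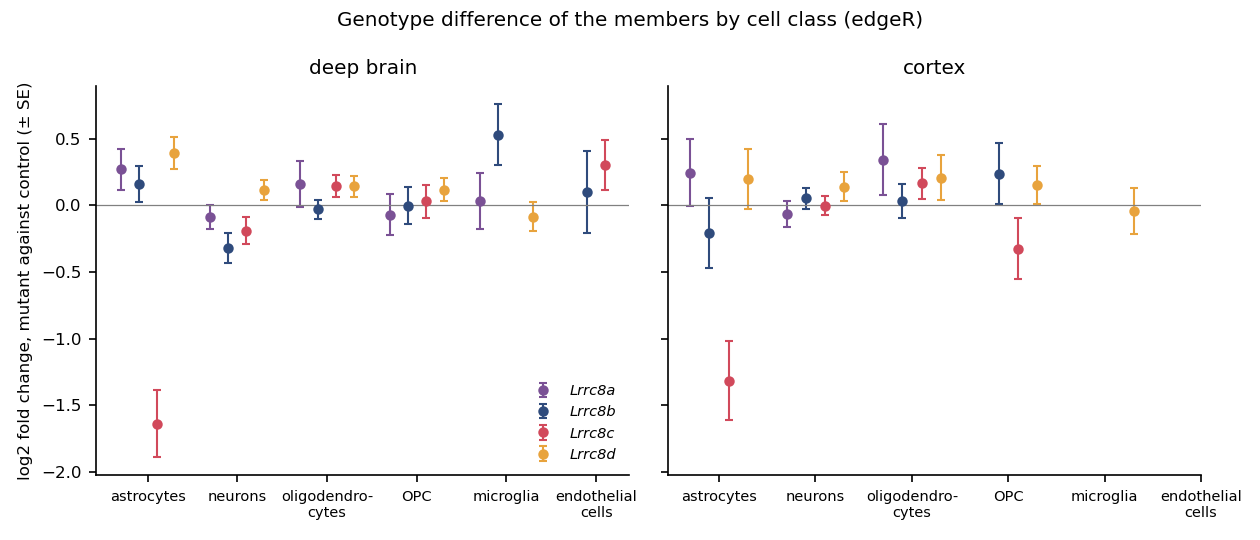
Log2 fold change between mutant and control libraries (edgeR, ± SE) of the members that passed the filter on low counts, by cell class, in deep brain (left) and cortex (right); OPC are oligodendrocyte precursor cells. Cortical endothelial cells are left empty because a single control library held 20 of them. Lrrc8c in astrocytes stands at -1.64 in the deep brain and -1.31 in the cortex, apart from the other points.

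A list of 36 further symbols of cell volume and anion transport, of which 35 were found, was read beside the family. In deep brain astrocytes 1 of 31 tested genes was called between genotypes and 0 of 28 in the cortex, against the 4.76% and 1.97% of all genes given above, and the median log2 fold changes of the list were -0.01 and -0.02 against -0.003 and -0.002 over all genes. The called gene was Ttyh1, a tweety-family membrane protein of astrocytes, at 795 to 1041 CPM in controls and 543 to 733 CPM in mutants of the deep brain (log2 fold change -0.50 ± 0.09). All mutants lay below all controls. In cortical astrocytes Ttyh1 stood at 695 to 1086 and 529 to 876 CPM and overlapped. In cortical oligodendrocytes Ttyh1 stood at 80.2 to 112 CPM in controls and 37.8 to 74.2 CPM in mutants and fell by 0.75 ± 0.14 (edgeR adjusted p = 0.0107), the only 1 of 25 list genes called there, beside 0.910% of all genes.

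Between genotypes 1 further list gene each was past the threshold in 3 fits. Ano1, a calcium-activated chloride channel, stood at 3.65 ± 0.84 CPM in control and 1.28 ± 0.70 CPM in mutant oligodendrocytes of the deep brain (log2 fold change -1.49 ± 0.30, 1 of 32 genes beside 1.65% of all genes). Aqp4, the astrocyte water channel, stood at 2.73 ± 0.49 and 4.22 ± 0.55 CPM in deep brain neurons (0.63 ± 0.12, 1 of 35 beside 0.348%), where the 7 astrocyte markers, Aqp4 among them, summed to 377 to 677 CPM in controls and 410 to 609 CPM in mutants. In cortical endothelial cells 1 of 14 genes was past the threshold, the glutamate transporter Slc1a3, beside 2.81% of all genes. It stood at 33.6 CPM in the single control library and at 33.3 and 291 CPM in the 2 mutant libraries, so that 1 library carried the difference. The astrocyte markers, Slc1a3 among them, summed to 686 CPM in the control and to 854 and 2726 CPM in the mutant libraries, and their part was not tested. No list gene was called by edgeR between genotypes in oligodendrocyte precursor cells or microglia, in cortical neurons, or in deep brain endothelial cells, nor for the interaction in any of the 6 classes.

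Between regions of control astrocytes 8 of 30 list genes were called, beside 9.46% of all genes, 3 higher and 5 lower in the deep brain, with a median log2 fold change of -0.12 against 0.003 over all genes. Ano1 rose by 2.34 ± 0.54 (edgeR adjusted p = 0.0037) from 1.67 ± 1.95 CPM in the cortex to 10.8 ± 4.6 CPM. Ttyh2 rose by 0.95 ± 0.17 (adjusted p = 2.1e-04) and the potassium channel Kcnj10 by 0.62 ± 0.15 (adjusted p = 0.0047). The glutamate transporters Slc1a3 and Slc1a2 fell by 0.99 ± 0.14 and 0.77 ± 0.12 (adjusted p = 1.2e-05 and 5.3e-05), and the kinase Wnk2 fell by 0.68 ± 0.22 (adjusted p = 0.0428). In neurons 12 list genes rose and 8 fell of 35, beside 39.6% of all genes called, led by Ano1 (2.04 ± 0.41), the cotransporter Slc12a7 (1.31 ± 0.27) and Hepacam (0.90 ± 0.18) among those that rose and Slc12a4 (-1.12 ± 0.20), Slc1a2 (-1.03 ± 0.15) and the chloride channel Clcn2 (-0.49 ± 0.05) among those that fell. Several of these levels were low. In cortical and deep brain neurons of controls Slc12a7 stood at 0.309 ± 0.186 and 0.833 ± 0.166 CPM. Slc12a4 stood at 2.24 ± 0.35 and 1.12 ± 0.28 CPM and Ano1 at 2.24 ± 1.7 and 10.1 ± 3.3 CPM. Hepacam stood at 3.85 ± 1.04 and 7.82 ± 1.19 CPM. Clcn2 (44.4 and 34.5 CPM) and Slc1a2 (499 and 265 CPM) were higher. The astrocyte markers, Slc1a2 among them, summed to 377 to 677 CPM in deep brain and 708 to 825 CPM in cortical neurons of controls. Their part and that of neuron make-up were not tested.

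In oligodendrocyte precursor cells 4 of 31 list genes rose in the deep brain and 2 fell, beside 3.50% of all genes called, among them the gap junction gene Gja1 (2.52 ± 0.38), Mlc1 (1.95 ± 0.54), Ttyh2 (0.80 ± 0.22), Ano1 (-1.48 ± 0.39) and Slc1a3 (-0.54 ± 0.13). In cortical and deep brain precursor cells of controls Gja1 stood at 7.58 ± 7.58 and 37.2 ± 6.0 CPM. Mlc1 stood at 2.64 ± 2.44 and 9.58 ± 2.59 CPM and Ano1 at 12.5 ± 8.3 and 5.09 ± 1.39 CPM. The astrocyte markers, of which Gja1 and Slc1a3 are members, summed to 1288 to 1614 CPM in these cells in the deep brain and to 945 to 1415 CPM in the cortex, and their part was not tested. In oligodendrocytes Slc1a2 fell by 0.90 ± 0.24 and Ttyh1 by 0.62 ± 0.13, 2 of 32 genes beside 6.39% of all genes. In microglia Kcnj10 rose by 2.01 ± 0.46, 1 of 25 genes beside 1.76%. It stood at 4.63 ± 3.98 CPM in cortical and 20.1 ± 3.8 CPM in deep brain microglia of controls. The part of RNA from other classes in it was not tested. The endothelial fit between regions rested on a single cortical control library, and no list gene is named from it.

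Across 20 points, each the mean of a cell class in a region, the members had different nearest neighbours among 15525 genes. The points share libraries and depth, and the values are Pearson correlations of log2(CPM + 1) given as a description. Lrrc8a was nearest to Itga6 (0.85), Mfhas1 (0.83) and Gm9889 (0.83). Lrrc8b was nearest to Hid1 (0.87), Agtpbp1 (0.86) and Eml1 (0.84), and Lrrc8c to Hdac7 (0.87), Aph1a (0.83) and Ro60 (0.80). Lrrc8d was nearest to Slc15a4 (0.82), Ldah (0.81) and Snx30 (0.80), and Lrrc8e, on 41 UMIs, to Gm35190 (0.72), Cyp4b1 (0.71) and Gm42716 (0.67). Among the members themselves the values ran from -0.62 for Lrrc8a with Lrrc8d to 0.52 for Lrrc8b with Lrrc8c. The other pairs of the 3 neighbours on chromosome 5 stood at 0.24 (Lrrc8b with Lrrc8d) and -0.51 (Lrrc8c with Lrrc8d).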

How the data were processed

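Nuclei from 24 libraries were profiled with the 10x 5′ v2 chemistry. The authors deposited UMI counts per gene and nucleus, unnormalized, made with bcl2fastq 2.20.0.422 and Cell Ranger 5.0.1 with introns on mm10. Nuclei entered with more than 500 and fewer than 7000 genes, and with under 20% of UMIs from mitochondria (804 to 8054 median UMIs per nucleus and library). No doublet caller was run. Nuclei were clustered per region (log-normalized to 1000 UMIs, 2000 variable genes, 20 components, Leiden in leidenalg 0.10.2 at resolutions 0.1 and 0.5) and clusters named from fixed markers, with rules for unnamed clusters written after the clusters had been seen. Counts were summed per class and library with 20 or more nuclei and tested with edgeR 4.0.16 (R 4.3.3; TMM, filterByExpr, quasi-likelihood, Benjamini-Hochberg over all genes tested) and DESeq2 1.42.0 as an alternative. The script was tested on simulated data. Fold changes are mutant over control or deep brain over cortex.

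The study tested over nuclei, and the library was the unit here. The members and lists were chosen with earlier results of these data known. Named were the 5 members, at most 3 called genes of the volume list per direction and contrast, and the 3 genes most alike to each member. The same number in both regions of a genotype is 1 mouse (correlation of deviations 0.0485 to 0.343 in astrocytes, 12 pairs). Pdgfb counts were not used to check genotype, since the ret allele keeps most of the gene. Errors are SD over libraries or SE of a fit. Alternatives covered scaling, filters, blocks, naming and single mice.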

Additional observations from a re-analysis of the deposited data

Results flagged for a closer look

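Of 88 groups of 4 or more libraries examined, 8 had a lowest or highest library set apart from the rest by Dixon's criterion, and chance flags about 1 group in 20. Lrrc8c in mutant cortical astrocytes was lowest in mutant 6, at 30.1 CPM on 44 UMIs, against 60.9 to 76.6 CPM in the others. Lrrc8b in the same class was lowest in mutant 1, at 5.11 CPM on 2 UMIs, against 24.7 to 32.2 CPM.

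In deep brain endothelial cells Lrrc8a stood at 6.87 CPM on 1 UMI in control 5 and at 9.17 CPM on 2 UMIs in mutant 3, where the next libraries held 63.4 and 55.0 CPM. Lrrc8b in deep brain microglia was lowest in control 3, at 12.5 CPM on 6 UMIs, against 16.6 to 17.9 CPM.

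In oligodendrocyte precursor cells Lrrc8c stood at 24.1 CPM on 4 UMIs in the cortex of control 1 (next 56.9 CPM). In deep brain mutants Lrrc8a stood at 15.9 CPM in mutant 4 (next 24.3 CPM), and Lrrc8d at 205 CPM in mutant 5 (next 165 CPM). No member had an interaction of region and genotype that passed the test.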

How the results depend on the processing

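Of the recomputed log2 fold changes 1691 kept their side of the threshold, 33 lost the call, 7 gained one and 2 that had been called changed sign. The signs of values that were not called are not described here. Counts of members called stayed within 1.5 times in 456 settings and moved in 19. Subsets by depth, age and astrocyte cluster were chosen after seeing the data. In deep brain astrocytes the count of 1 became 2 at the other cluster resolution and in mice 1 to 3 only, where Lrrc8d was added, 0 in mice 4 to 6 only, and 1 to 2 without single mice. In cortical astrocytes it became 0 in the deep libraries only and 0 to 1 without single mice. Between regions of control astrocytes the count of 3 became 1 at the other resolution, 0 in the deep cortical libraries only, 0 with telencephalic astrocytes only, and 0 to 3 without single mice. With telencephalic astrocytes only, Lrrc8a (-0.044) and Lrrc8c (0.090) changed sign between regions, where the alternative replaces the astrocytes compared. Between regions of oligodendrocyte precursor cells the count became 1 without mixed-marker nuclei. With the mouse as a replicate block the count between regions of oligodendrocytes became 1, Lrrc8b between regions of astrocytes lost its call (-0.60), and no other call changed. Same-numbered mice of the genotypes are not said to share a litter or batch, though numbers 1 to 4 match in age, and not every pair deviated together (correlations of deviations in astrocytes from -0.0507 to 0.231 in the deep brain and 0.0196 to 0.261 in the cortex), and with that number as a replicate block Lrrc8c stood at -1.62 in deep brain and -1.10 in cortical astrocytes. Apart from these cases the cause of a change was not tested. Lrrc8e, with 47 UMIs, did not pass the filter on low counts. Between genotypes the same held for Lrrc8a and Lrrc8d in endothelial cells and Lrrc8a in cortical oligodendrocyte precursor cells. It also held for Lrrc8c in microglia of both regions and for Lrrc8a and Lrrc8b in cortical microglia. No fold change of theirs is given there.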
